A study of Ovis aries with 2 samples.

Results

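The B and plasma cells of the sheep anterior pituitary were a rare population: 141 of 29621 kept cell barcodes, 17 of 16368 in the library of the 3-month-old gland and 124 of 13253 in that of the 6-month-old gland. A barcode was kept with at least 500 genes and 1000 UMIs, a UMI being 1 tagged transcript molecule. It was a member with a UMI of at least 2 of CD79A, CD79B, MS4A1, PAX5 and JCHAIN, less than 25% of its UMIs from PRL, less than 10% from GH, less than 0.3% from C1QA, C1QB and C1QC together, and fewer than 2 of CD3E, CD3D and CD3G. The members were chosen by these measured values, so these genes are given as a description. The data fitted the label in part. 56 members carried a large load of antibody transcripts, 19 others had MS4A1, and the remaining 66 had little antibody RNA, no MS4A1 and, at 6 months, leading genes that differ from those of B and plasma cells.

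The study profiled dissociated anterior pituitaries of Hu sheep, a domestic breed, at 3 and 6 months of age, around puberty, on a droplet platform with 1 library per age. Both groups were of the same breed, with no treatment or genotype named in the labels. How many animals, and of which sex, went into a library is not stated in the labels. With 1 library per age no difference has a replicate check, no test was run, and age and library cannot be told apart.

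B cells carry an antibody as their antigen receptor, coupled to the signalling pair encoded by CD79A and CD79B. MS4A1 encodes the surface protein CD20, and PAX5 encodes the transcription factor that holds B cell identity. On activation B cells can become plasma cells, which lose much of that programme, take on one driven by IRF4, PRDM1 and XBP1, expand the endoplasmic reticulum and secrete antibody. JCHAIN encodes the joining chain that links antibody units into the polymers that cross epithelia.

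The 3-month library held 18961 barcodes and 142479651 UMIs, and the 6-month library 15031 barcodes and 175239612 UMIs. Kept barcodes had a median of 5220 and 9599 UMIs. PRL, the main lactotroph hormone, made up 21.9% and 34.9% of their UMIs. The libraries had 81 barcode sequences in common, 64 among kept barcodes, and no sequence was a member in both. A doublet caller marked 5.62% and 4.68% of kept barcodes, among them 0 of 17 and 3 of 124 members. Shares below carry exact Clopper-Pearson 95% intervals and ratios exact conditional binomial 95% intervals. Both cover counting error only, without the variation between cells, animals or preparations.

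Members made up 0.104% (0.0605 to 0.166) of kept barcodes at 3 months and 0.936% (0.779 to 1.11) at 6 months. The share at 6 months was 9.01 times that at 3 months (5.4 to 16), and the intervals of both shares did not overlap. A pair of gates of the same libraries serves as a comparison below. Barcodes with at least 2 CD3 genes, called the T gate, made up 0.299% and 5.09%. Barcodes with at least 0.3% C1Q transcripts, called the macrophage gate, made up 8.82% and 9.84%. The lymphoid shares were thus both higher at 6 months, while the macrophage share differed by less. The 6-month library was also the deeper, and its depth makes a second rule gene easier to detect. Under the other limits tried the ratio of the shares of members was 7.95 to 9.47, and the part of depth in it was not tested.

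At 3 months 25 kept barcodes had at least 2 of the 5 rule genes, and at 6 months 168 had them. The PRL limit left out 5 and 24 of these, the GH limit 3 and 2, the C1Q limit 0 and 3 and the CD3 limit 0 and 18. The member highest in PRL had 20.7% at 3 months and 23.4% at 6 months, against 31.6% and 25.4% in the lowest of those left out. The highest C1Q share of a member was 0.0522% and 0.259%, and the lowest left out was 0.325%, at 6 months. The limit on rule genes was a close one: 11 of 17 and 78 of 124 members had exactly 2, and 718 and 1270 kept barcodes had 1. CD79A with JCHAIN was the only pair behind 5 members at 3 months and 69 at 6 months. CD79A was detected in 13 and 119 members, JCHAIN in 13 and 113, CD79B in 10 and 51, MS4A1 in 5 and 15, and PAX5 in 7 and 4.

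The given division into B and plasma cells set MS4A1 against JCHAIN in each barcode. At 3 months 3 members (17.6%) had more MS4A1, 10 (58.8%) more JCHAIN and 4 equal numbers. At 6 months 12 (9.68%) had more MS4A1, 109 (87.9%) more JCHAIN and 3 equal numbers. This division puts 1 JCHAIN UMI and 1445 JCHAIN UMIs on the same side, so antibody transcripts, which the rule did not use, were taken as a second measure.

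Sheep antibody genes carry placeholder names in these files. A reference gene table lists V segments and constant regions in runs beside TMEM121, beside VPREB3 and beside RPIA, genes that in human neighbour the heavy chain, lambda light chain and kappa light chain loci. The 27 listed segments were joined by 2 protein-coding entries inside these runs, LOC114108841 and LOC101113211, which were added after their values had been seen. Together these 29 entries are called antibody segments here, by the neighbours of their runs. Their share of a barcode's UMIs fell into separate ranges. At 3 months the highest share below 5% was 3.91% and the lowest above it 11.3%. At 6 months these were 3.81% and 10.6%. Only 1 and 4 members lay between 2.5% and 5%, and 0 and 0 between 5% and 10%.

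**Figure D1:**
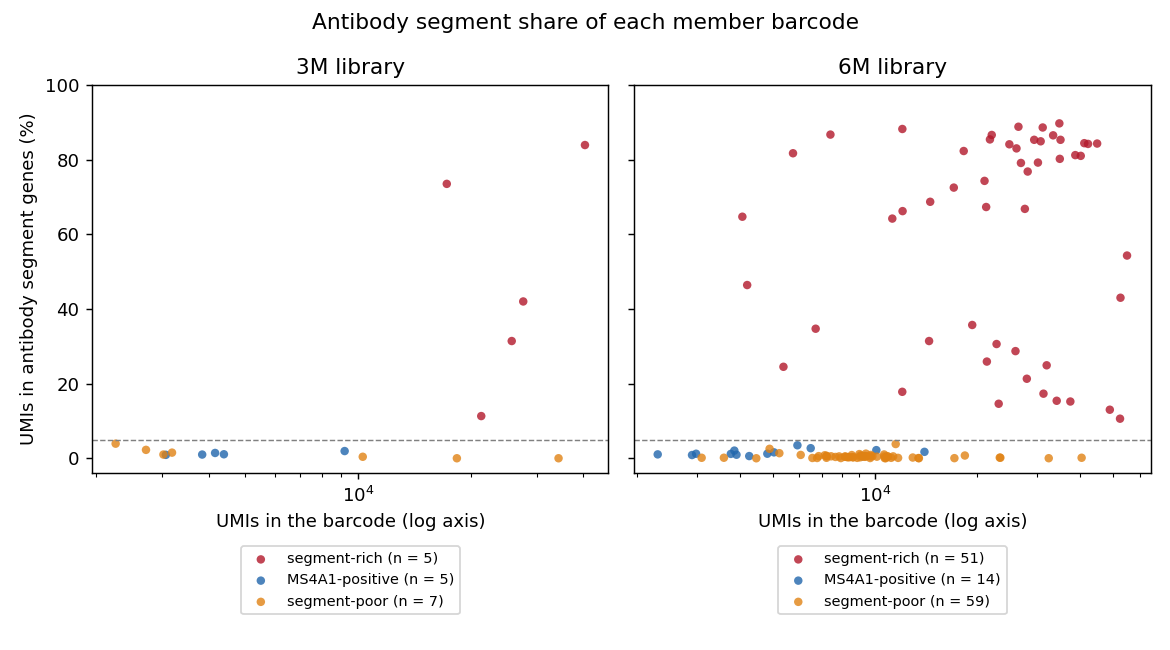
Share of UMIs from antibody segments (percent) against the UMIs of each member barcode (log axis), by library and coloured by group, with a dashed line at 5%. Segment-rich members lie from 10.6% to 89.7% at 6 months and from 11.3% to 83.9% at 3 months, apart from all other members, which lie at or below 3.91%.

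The 5% line, chosen after the values were seen, gave 3 groups. Segment-rich members numbered 5 at 3 months and 51 at 6 months, or 0.0305% (0.00992 to 0.0713) and 0.385% (0.287 to 0.506) of kept barcodes. MS4A1-positive members below the line numbered 5 and 14, or 0.0305% and 0.106% (0.0578 to 0.177), with intervals that overlapped. Segment-poor members, below the line and without MS4A1, numbered 7 and 59, or 0.0428% (0.0172 to 0.0881) and 0.445% (0.339 to 0.574). Without the segment-poor members the 6-month share was 0.49%. At 6 months median depth was 26421 UMIs per barcode in segment-rich, 4548.5 in MS4A1-positive and 9145 in segment-poor members, against 2979 in the T gate and 4632.5 in the macrophage gate. At 3 months the medians of the groups of members were 25735, 4149 and 3183.

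**Figure D2:**
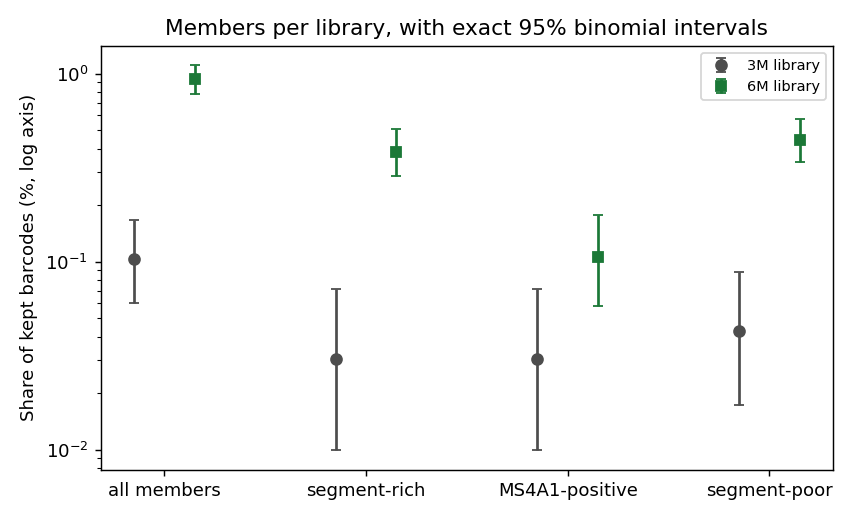
Share of kept barcodes (percent, log axis) in each library for all members and their 3 groups, with exact 95% binomial intervals as bars. The intervals of the libraries are apart for all members (0.104% and 0.936%), segment-rich and segment-poor members, and overlap for MS4A1-positive members.

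In segment-rich members antibody segments made up most of the RNA. At 6 months they were 59.7% of the summed UMIs, with a lowest barcode at 10.6%, a median of 72.5% and a highest at 89.7%. At 3 months they were 51.9%, and the 5 barcodes had 11.3%, 31.4%, 42%, 73.5% and 83.9%. MS4A1-positive members had 1.63% and 1.42%, segment-poor members 0.44% and 0.361%. The 6-month T and macrophage gates, which should hold none of their own, had 0.0352% and 0.0313%, so both lower groups stood above that background in sum. Over all kept barcodes the segment share was 0.0501% at 3 months and 0.623% at 6 months.

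1 entry on the VPREB3 side, LOC114108841, accounted for 654950 UMIs, 48.7% of all UMIs of the 6-month segment-rich members, and was present in 51 of 51. It made up 36.2% of those of the 3-month group, and 0.0231% and 0.0217% of the 6-month T and macrophage gates. The light chain side with most UMIs was the VPREB3 side in 49 of 51 segment-rich members at 6 months and the RPIA side in 2. No segment-rich 6-month barcode had more than 0.446% of its light side UMIs on the other side. Each of these barcodes thus had 1 light chain side by the listed entries. The RPIA side was LOC101110577 alone, a V segment, while the VPREB3 side had many entries and a constant region. The sides were thus not measured alike. At 3 months all 5 were on the VPREB3 side, and 1 of them had 28.3% on the RPIA side, with 19564 against 7717 UMIs. Among segment-poor members at 6 months 21 were on the VPREB3 side, 15 on the RPIA side and 23 had no leading side.

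Each segment-rich barcode also had 1 main heavy chain constant entry. A barcode was given its leading entry on the TMEM121 side where that had at least 3 UMIs and 2 times the next. LOC101108817 and LOC101108781 may share reads and were taken as a pair. In the 27 barcodes they led at 6 months the first held a median of 51.1% of their sum (46.9 to 99.3), and in the 17 led by LOC101108522 a median of 96% (73.4 to 100). At 6 months the pair led in 27 of 51 segment-rich members (52.9%, 38.5 to 67.1), LOC101108522 in 17 (33.3%, 20.8 to 47.9), LOC101107475 in 4 and LOC101113211 in 3. The leading entry held at least 82% of the constant region UMIs in each of them, with a median of 94.9% in those led by LOC101108522 and 99.9% in those led by the pair. In human the alpha constant genes lie nearest TMEM121 and the mu and delta genes nearest the V segments. No antibody class is assigned to the sheep entries here.

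LOC101108522 differed most between the libraries: 40966 UMIs in the 6-month members and 1 UMI in the 3-month members. The 5 segment-rich members at 3 months were led by the pair in 3 and by LOC101107475 in 2. A count of 0 in 5 barcodes allows a share of up to 52.2% by the exact interval, so a difference in how often it led was not detectable with so few barcodes. LOC101113211 led in 5 of 5 MS4A1-positive members at 3 months. At 6 months it led in 4 of 14, the pair in 4, LOC101107475 in 1 and none in 5. It led in 41 of 59 segment-poor members at 6 months (69.5%, 56.1 to 80.8).

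**Figure D3:**
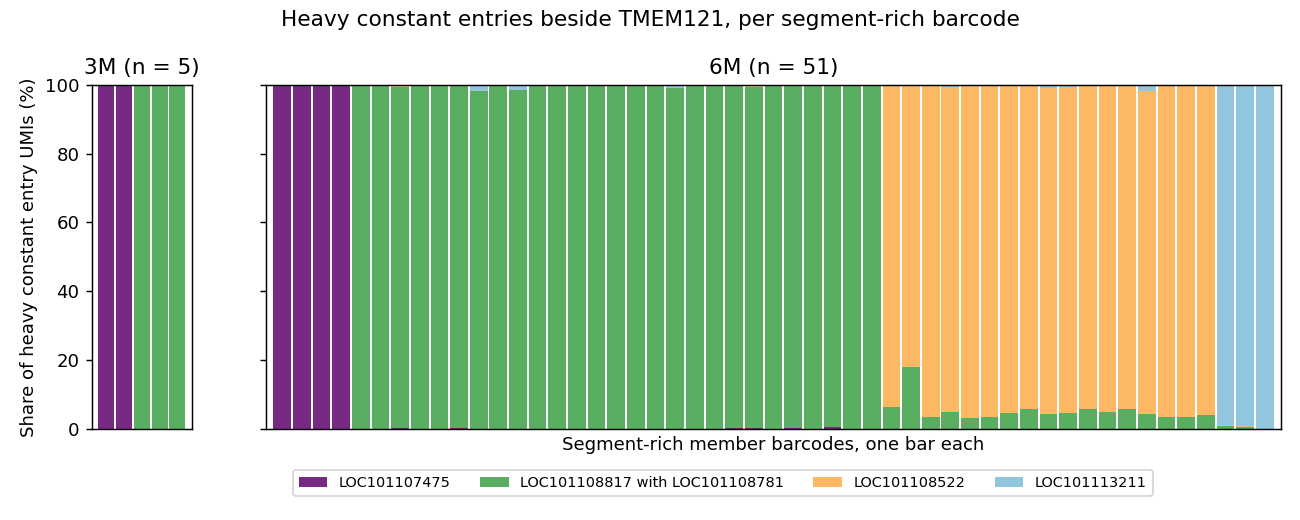
Share of the heavy chain constant entry UMIs (percent) by entry, with 1 stacked bar for each segment-rich barcode, 5 at 3 months and 51 at 6 months. Each bar has 1 leading entry with at least 82%, the pair in 27 and LOC101108522 in 17 of the 6-month barcodes.

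The 6-month segment-rich members varied with their constant entry. Those led by LOC101108522 had a median segment share of 84.3% (range 54.3 to 89.7) and a median of 21 JCHAIN UMIs. Those led by the pair had 66.2% (13 to 88.8) and 127 JCHAIN UMIs. The 4 led by LOC101107475 and the 3 led by LOC101113211 had medians of 18% and 17.8% segments, with 194 and 182 JCHAIN UMIs. Outside segments and hormones the JCHAIN level was 10012 per 1000000 with LOC101108522, 15858 with the pair, 20157 with LOC101107475 and 11144 with LOC101113211, so the classes lay closer together than in raw UMIs. The barcode with most JCHAIN, 1445 UMIs, was led by LOC101107475. The others of that class had 95, 145 and 243, so its level of 20157 rested mainly on 1 barcode. ITGA4, an integrin chain used in lymphocyte homing, was detected in 3 of 4 and 3 of 3 barcodes of the small classes, in 12 of 27 of the pair and in 2 of 17 of LOC101108522.

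Plasma cell genes marked the segment-rich members. Levels from here on, unless said otherwise, are summed UMIs per 1000000 after leaving out the 29 antibody segments and 7 hormone genes, since segments took 59.7% of the RNA in 1 group. A level is compared between groups for the same gene only. MZB1, a chaperone of antibody assembly, had 4634 at 3 months and 4217 at 6 months in segment-rich members. Each of the 5 and 51 barcodes had it, with 38 to 78 and 3 to 190 UMIs (median 57 and 35). It was at 0 in MS4A1-positive members of both ages, and at 65 in segment-poor members, 0.625 in the T gate and 1.32 in the macrophage gate at 6 months. The 6-month segment-rich and MS4A1-positive ranges of MZB1 did not overlap.

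**Figure D4:**
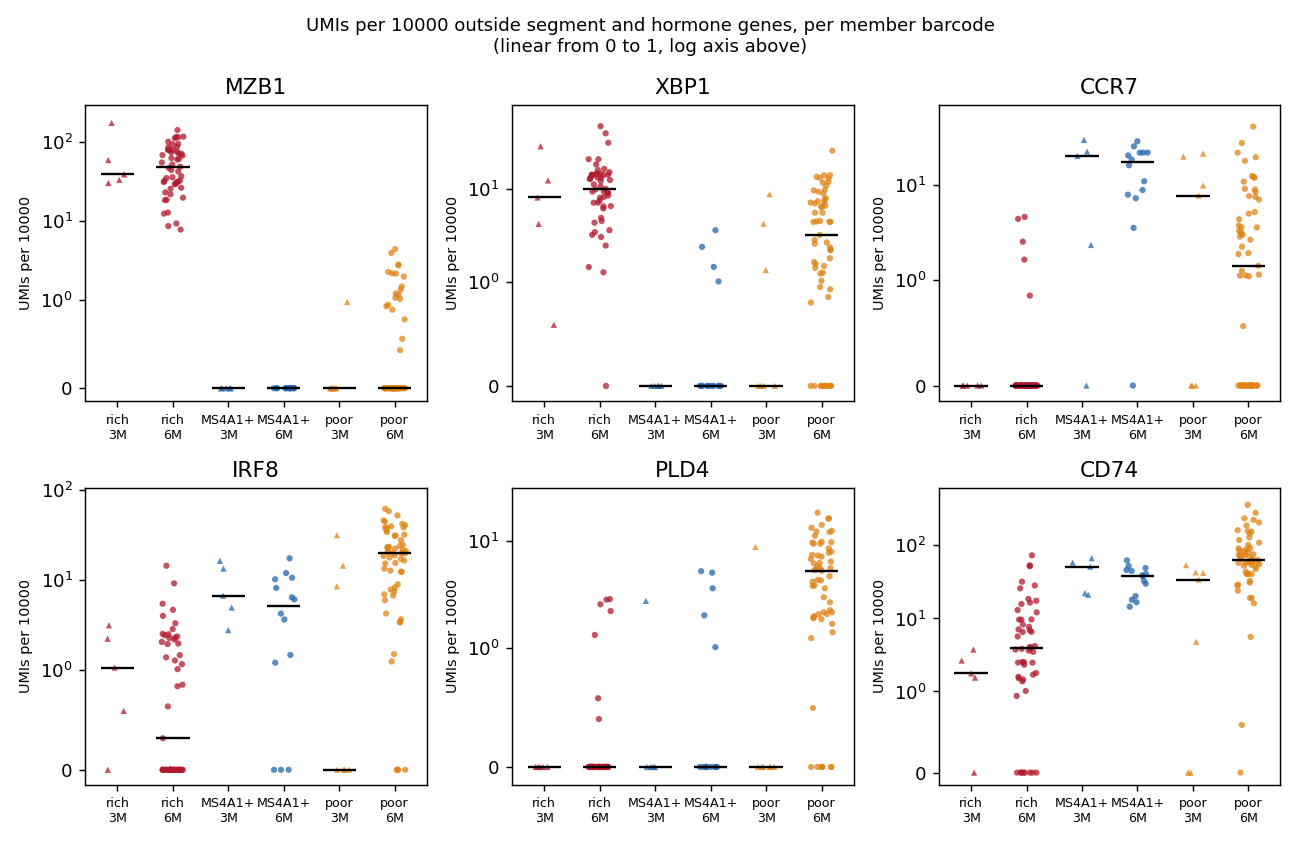
UMIs of 6 genes per 10000 outside antibody segments and hormone genes in each member barcode (axis linear up to 1 and logarithmic above), by group and library, with a line at the median. MZB1 was present in every segment-rich barcode and in no MS4A1-positive one, while CCR7 was present in 13 of 14 MS4A1-positive and 5 of 51 segment-rich barcodes at 6 months.

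JCHAIN, a rule gene, had a level of 15207 in segment-rich, 288 in MS4A1-positive and 636 in segment-poor members at 6 months. XBP1, the factor that expands the secretory machinery, had 1003 (50 of 51 barcodes) against 78.6 (4 of 14), a log2 ratio of 3.67 (2.54 to 5.13). TXNDC5, a protein disulfide isomerase, had 1450 against 39.3, at log2 5.20 (3.65 to 7.49). DERL3, of the pathway that clears misfolded proteins, had 3604 against 799, at 2.17 (1.80 to 2.56). TNFRSF17, the receptor BCMA of plasma cells, was detected in 21 of 51 segment-rich barcodes and at 0 in both other groups and both gates. IRF4 did not set the groups apart, at 110 against 183.

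A gene was counted as different at 2-fold or more with at least 20 summed UMIs over both groups. Between segment-rich and MS4A1-positive members at 6 months 913 of 3592 genes were higher, 25.4%, and 408 lower, 11.4%, with a median log2 ratio of 0.24. Per 1000000 of all UMIs the segments diluted everything else, and 199 of 3610 genes were higher and 1854 lower, with a median of -1.12. Of 16 measured plasma cell identity genes 12 were higher and 0 lower, with a median of 2.64, and on all UMIs 8 were higher and 1 lower. Of 33 measured genes of the secretory pathway and unfolded protein response 32 were higher and 0 lower, with a median of 2.55, and on all UMIs 20 and 0. A gene near the limit of 20 UMIs passed more readily if it was high in the deeper group, so these counts describe the measured genes only.

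The secretory genes on the list act in the endoplasmic reticulum. HSPA5, the main chaperone of the endoplasmic reticulum, had 2284 against 393, a log2 ratio of 2.54 (2.02 to 3.11). HSP90B1, its partner for antibody and receptor folding, had 7467 against 564, at 3.73 (3.30 to 4.20). SDF2L1, a cofactor of HSPA5, had 1127 and was in 49 of 51 barcodes, against 0, at least 4.84 higher against a floor of 3 UMIs over the group. SSR4, of the translocon-associated complex, had 2533 against 433, and SEC11C, of the signal peptidase, 1440 against 39.3. In the T gate HSPA5 had 1390 and HSP90B1 727. In the macrophage gate these were 2632 and 1388, so HSPA5 alone did not set the segment-rich members apart from macrophages.

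The cell cycle list was also higher in segment-rich members on this scale, with 11 of 20 genes higher, 0 lower and a median of 1.04. Over all genes 25.4% were higher and 11.4% lower, with a median of 0.24. On all UMIs the list's direction turned, with 2 higher, 1 lower and a median of -0.25, against -1.12 over all genes. At least 3 of 8 proliferation genes such as MKI67 and TOP2A were detected in 12 of 51 segment-rich barcodes (23.5%, 12.8 to 37.5), 1 of 14 MS4A1-positive, 1 of 59 segment-poor and 32 of 675 T gate barcodes (4.74%). Depth was higher in the segment-rich group, and thinned to 1000 UMIs per barcode MKI67 was detected in 3.92% of it against 1.78% of the T gate. Thinning drew on all UMIs, with a median segment share of 72.5% in the former and 0.0284% in the latter. Depth outside segments thus stayed unequal. The 12 barcodes had a median segment share of 17.6%, against 81% in the other 39. Their median total depth was 29633.5 and 26075 UMIs, but outside segments and hormones it was 22658.5 (9793 to 46902) and 4510 (936 to 24812). Cycle genes were thus easier to detect in the 12, and the part of this depth in the difference was not tested. They were 3 of 4 led by LOC101107475, 3 of 3 by LOC101113211, 6 of 27 by the pair and 0 of 17 by LOC101108522, classes with median depths of 20749, 18397, 4601 and 5094 UMIs outside segments and hormones. At 3 months 2 of 5 segment-rich barcodes met the same count.

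Some segment-rich members carried transcripts of genes known from other cells, and the origin of these transcripts was not tested. The doublet caller marked 0 of the 51 segment-rich members at 6 months. GNLY, a cytotoxic granule gene of T and NK cells, had a level of 1164 and was in 15 of 51 barcodes at 6 months, with 154 of 592 UMIs in 1 barcode. The T gate had 1821, and MS4A1-positive members and the 3-month segment-rich members were at 0. The 16 segment-rich barcodes with a CD3 gene held 472 of the 592 GNLY UMIs, and the 35 without one held 120. Over the 10 measured NK genes the summed level was 1359, with 0 to 33683 per barcode, a median of 0 and 2 genes at 0, against 3741 in the T gate. Over the 15 measured T genes it was 179, with 1 at 0, against 2452 in the T gate. C1QA, C1QB and C1QC were also over 2-fold higher than in MS4A1-positive members outside segments and hormones, with 40 of 48 C1QA UMIs in 1 barcode. On all UMIs 0 of these 3 were 2-fold higher, with a median log2 ratio of 0.48. The part of such barcodes in the results was not tested.

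Antibody-laden barcodes were also found outside the members. At 6 months 18 kept barcodes that were no members had at least 10% segments, and at 3 months 0. The rule left out 12 of them for at least 2 CD3 genes, 3 for PRL and 3 for fewer than 2 rule genes. The 12 had 2 to 6 summed CD3 UMIs and segment shares of 18.6% to 86.2%.

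MS4A1-positive members were defined by MS4A1, and the other rule genes helped to choose them, so these values are a description. MS4A1 had a level of 577 in this group at 6 months and 542 at 3 months. The 5 barcodes at 3 months had 1, 1, 3, 4 and 4 UMIs, and the 14 at 6 months had 1 to 11 (median 2.5). Outside the group it was in 1 of 51 segment-rich barcodes and at 0 in the 6-month T and macrophage gates. CD79B had 315 against 140 in segment-rich and 23.3 in segment-poor members, and 0 in both gates. CD79A was shared more evenly, at 668 against 557 and 253, a log2 ratio of segment-rich to MS4A1-positive of -0.26 (-0.70 to 0.20). PAX5 was in 5 of 5 of these barcodes at 3 months, with 1 to 4 UMIs, and in 1 of 14 at 6 months.

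B cell identity genes followed in part. Of 15 measured 9 were lower in segment-rich than in MS4A1-positive members at 6 months and 3 higher, with a median log2 ratio of -1.94 (0 higher and 11 lower on all UMIs). Over all genes 11.4% were lower and 25.4% higher, and on all UMIs 1854 and 199 of 3610. CD40, the receptor for T cell help, had 197 in MS4A1-positive and 25.6 in segment-rich members, a log2 ratio of -2.94 (-4.13 to -1.77). SWAP70, a signalling protein of B cells, had 695 against 74.7. CXCR5, the receptor that leads B cells to follicles, was in 6 of 14 barcodes at a level of 131, against 1.97 and 1.67 in segment-rich and segment-poor members. The 3 genes that were higher in segment-rich members were POU2AF1, a coactivator at antibody genes, VPREB3 and IKZF3, on the scale without segments only. CD22, CR2 and FCER2, surface genes of mature B cells, had 2, 1 and 6 UMIs over the 124 members, so these were near 0 at this depth.

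Of 12 measured genes of B cell receptor signalling 4 were lower in segment-rich members, namely LYN, BCL10, PRKCB and PTPRC, and 0 higher. The median was -0.85, and on all UMIs 0 were higher and 11 lower. Over all genes 25.4% were higher and 11.4% lower, and on all UMIs 199 and 1854 of 3610, with a median of -1.12. CD74, the chaperone of class II molecules, had 3683 in MS4A1-positive, 655 in segment-rich and 7300 in segment-poor members. The T gate had 810 and the macrophage gate 9390. CD83, an activation marker of B and dendritic cells, had 1022, 92.4 and 635. BCL6, the master factor of germinal centres, had 13.1 in MS4A1-positive, 23.6 in segment-rich and 118 in segment-poor members. CD27 and TNFRSF13B, receptors known from memory B cells and plasma cells, were higher in segment-rich members, at 108 against 13.1 and 268 against 65.5, in the same direction on all UMIs (40.9 against 12.6 and 101 against 62.9).

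CCR7 and CCR10 differed in opposite directions among the homing receptors. CCR7, the receptor for lymph node chemokines, had 1363 in MS4A1-positive and 37.4 in segment-rich members at 6 months, a log2 ratio of -5.19 (-5.98 to -4.47). At 3 months it had 1627 and 0. CCR10, a receptor of plasma cells that home to epithelia, was in 20 of 51 segment-rich barcodes at 6 months, at a level of 106, and in 3 of 5 at 3 months, at 223. It was at 0 in MS4A1-positive and segment-poor members at 6 months. CXCR4, the receptor for CXCL12, was detected in all 3 groups and lower in segment-rich members, at 421 against 1062. Of 10 measured homing genes 3 were higher in segment-rich members (CCR10, ITGB1, ICAM2) and 3 lower (CXCR4, CCR7, S1PR1), against 25.4% higher and 11.4% lower over all genes. On all UMIs 1 was higher and 4 lower, and ITGB1 turned, at 110 against 138.

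Of 8 measured survival ligands and receptors 3 were higher in segment-rich members (IL6R, TNFRSF13B, TNFRSF17) and 2 lower (BCL2, BCL2A1), and on all UMIs 0 and 5. Over all genes 25.4% were higher and 11.4% lower, and on all UMIs 199 and 1854 of 3610. With so few genes the list is not set apart from these shares. TNFRSF13C, the BAFF receptor, had 315 in MS4A1-positive, 238 in segment-rich and 43.3 in segment-poor members, against 2.81 in the T gate. BCL2A1, an antiapoptotic gene, had 629, 250 and 263. Among the ligands, TNFSF13B (BAFF) had 0 in MS4A1-positive and 1.97 in segment-rich members. IL6, another ligand of the list, was at least 2-fold higher in segment-poor than in MS4A1-positive members. It was also higher in all 6-month members than in the T gate. The macrophage gate had 79.3 for TNFSF13B and 14.8 for TNFSF13 (APRIL), against 5.31 and 6.56 in the T gate. CXCL12, the retention ligand of plasma cells in bone marrow, had 0 in the members and 2.35 in the macrophage gate. Over all 6-month members the sex steroid receptors ESR1 and PGR had 8 and 1 UMIs, so a level could not be compared between ages or groups.

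The 12 leading genes above and below between segment-rich and MS4A1-positive members were of a few kinds. Those higher were MZB1, JCHAIN, GNLY, SDF2L1, TXNDC5, SEC11C, FKBP11 and HSP90B1, together with FOS, HSPA6, HSPB1 and HSPA1A of the stress response. FOS had 2797 against 118, and HSPA1A 2608 against 170. Those lower were MS4A1, CCR7, TSPO, RNF213, EPSTI1, CXCL10, CYSTM1, PLAC8, CD83, MX1, NFKBID and SWAP70. Of 20 measured immediate early and dissociation genes 10 were higher and 1 lower, with a median of 1.00. Over all genes 25.4% were higher and 11.4% lower, with a median of 0.24. On all UMIs 6 of the list were higher and 8 lower, with a median of -0.34, so that direction depended on the scale. Over all genes 199 of 3610 were then higher and 1854 lower, with a median of -1.12. The list's median thus lay above that of all genes on both scales. KLF2, a factor of resting lymphocytes, was the 1 lower gene of the list outside segments and hormones, at 474 against 1232. The macrophage gate had 4538 for FOS and the T gate 2019.

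**Figure D5:**
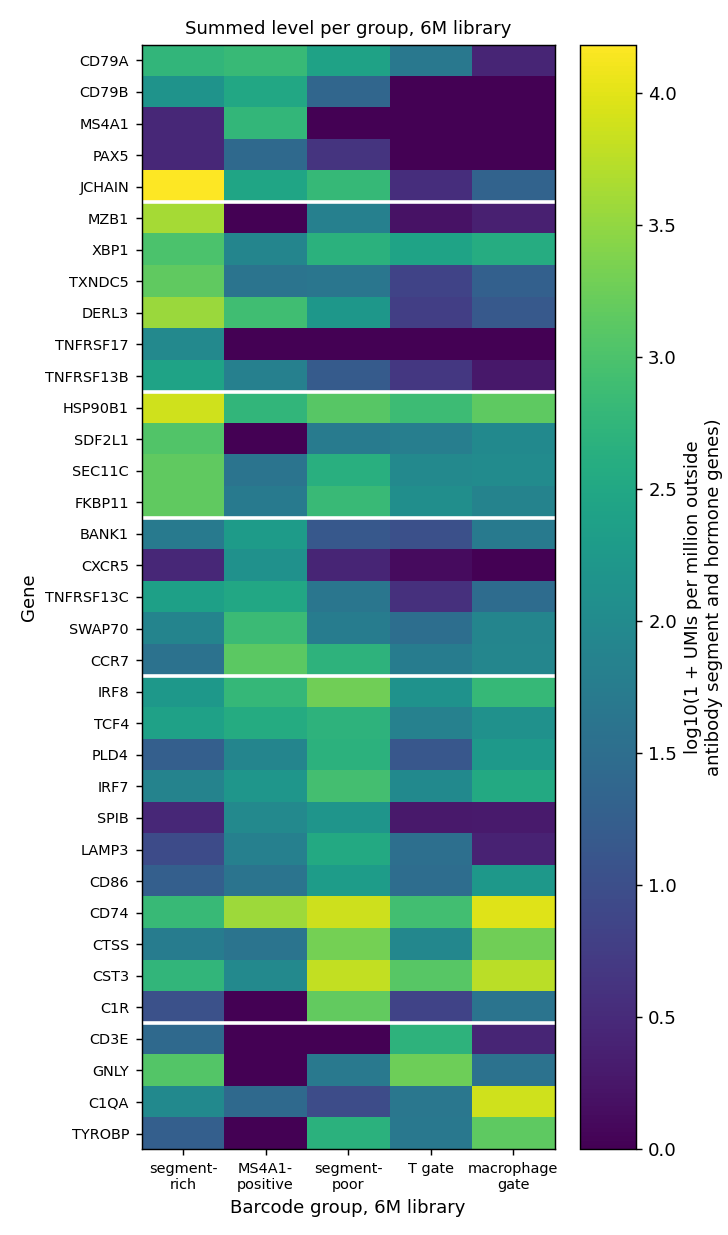
Summed levels at 6 months (colour, log10 of 1 plus UMIs per 1000000 outside antibody segments and hormone genes) of 35 selected genes in the 3 groups of members and both gates. MZB1, TXNDC5, HSP90B1 and JCHAIN were highest in segment-rich members, MS4A1, CCR7 and CXCR5 in MS4A1-positive members, and IRF8, PLD4 and C1R in segment-poor members.

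Segment-poor members were the largest group at 6 months, 59 of 124, and their leading genes went against the label. They met the rule mostly through CD79A with JCHAIN alone, in 52 of 59, and 19 of 59 had JCHAIN at 1 UMI. CD79A had a level of 253 in 58 of 59 barcodes, with a median of 2 UMIs, and JCHAIN 636 in 56, with a median of 3. The rule asks for 1 UMI of each of such a pair, so some level of both was set by the choice of members. CD79A had 45.9 in the T gate and 1.76 in the macrophage gate, and JCHAIN 2.5 and 20.5. MS4A1 was at 0 by definition, CD79B was in 6 of 59 at 23.3, and MZB1 in 20 of 59 at 65. Plasma cell genes were shared in part, with XBP1 in 48 of 59. Against MS4A1-positive members 7 of 13 measured plasma cell identity genes were higher and 1 lower, with a median log2 ratio of 1.03. Of 32 secretory genes 16 were higher and 0 lower, and of 14 B cell identity genes 3 and 6. Over all genes 21.8% were higher and 11.4% lower, with a median of 0.14.

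IRF8, a factor of B, dendritic and myeloid cells, set this group apart, at 1857 in 55 of 59 barcodes, against 603 in MS4A1-positive and 169 in segment-rich members, 136 in the T gate and 624 in the macrophage gate. The log2 ratio to MS4A1-positive members was 1.62 (1.20 to 2.08). PLD4, an endolysosomal nuclease, had 486 in 52 of 59 barcodes against 78.6 and 17.7, at 2.63 (1.49 to 4.09). IRF7, the factor of type I interferon induction, had 839 against 157 and 72.8, at 2.42 (1.60 to 3.38). TCF4, in human the lineage factor of plasmacytoid dendritic cells, had 506 in 51 of 59 barcodes against 367 and 242, a ratio of 0.46 (-0.10 to 1.08). UNC93B1, which carries nucleic acid sensing receptors to the endosome, had 300 against 26.2 and 7.87.

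The list of plasmacytoid dendritic cell markers had 4 of 6 measured genes higher in segment-poor than in MS4A1-positive members (PLD4, IRF7, RUNX2, SLC15A4) and 0 lower, with a median of 1.82. Over all genes 870 of 3993 were higher, 21.8%, and 454 lower, 11.4%, with a median of 0.14. On all UMIs these were 879 and 452. The summed level of the 12 measured list genes was 2032 in segment-poor members, with 0 to 8538 per barcode and 0 genes at 0. It was 668 in MS4A1-positive and 399 in segment-rich members, 278 in the T gate and 880 in the macrophage gate. At least 3 of TCF4, PLD4, IRF7 and IL3RA were detected in 44 of 59 segment-poor members (74.6%), 2 of 14 MS4A1-positive and 3 of 51 segment-rich members. The same held for 4 of 675 T gate and 203 of 1304 macrophage gate barcodes (15.6%). In human, plasmacytoid dendritic cells are known to transcribe JCHAIN, IRF8 and SPIB as well. No cell type name is given to the group here.

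Markers of other cells moved with the group too. CD8B, a T cell coreceptor chain, had 316 in 44 of 59 barcodes against 0 in MS4A1-positive members and 235 in the T gate. The 15 measured T genes summed to 570, with 5 at 0, against 2452 in the T gate. TYROBP, a myeloid and NK adaptor, had 465 in 30 of 59 barcodes and AIF1 273 in 16, both at 0 in MS4A1-positive members. The 13 measured macrophage genes summed to 884, with 0 to 5875 per barcode and 3 at 0, against 27198 in the macrophage gate. CD68 was near that of the T gate, at 15 against 18.4, and far from the 514 of the macrophage gate. The conventional dendritic cell list summed to 1242 against 1612 in MS4A1-positive members, with XCR1 at 0 and CLEC9A at 3 UMIs. CCR7, which is on that list, made up 1363 of the 1612. Of 4 measured list genes 2 were higher in segment-poor members (CADM1, LAMP3) and 1 lower (CCR7), with a median log2 ratio of 0.78. Over all genes 21.8% were higher and 11.4% lower, with a median of 0.14. The doublet caller marked 3 of the 59. The part of these transcripts in the results was not tested.

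The 12 leading genes higher in segment-poor than in MS4A1-positive members included CST3, a cysteine protease inhibitor, at 6249 against 91.7, a log2 ratio of 6.09 (5.05 to 7.41). CTSS, the protease of class II maturation, had 2009 against 39.3, at 5.67 (4.12 to 7.95). C1R, a complement protease, had 1502 in 42 of 59 barcodes and CEBPD, a myeloid factor, 1627 in 47, both against 0. CSF2RB, the common cytokine receptor chain, was in 48 of 59. The others were FCER1G, RGS1, NPC2, FOS, HSPA6, HSPB1 and IGFBP5, the last with 201 of 412 UMIs in 1 barcode. The genes lower were MS4A1, BHLHE41, SWAP70, TSPO, KLF2, CD79B, BANK1, RALGPS2, PLEKHF2, RASGRP3, DUT and UBE2C, among which BANK1, RALGPS2 and RASGRP3 act in B cell signalling.

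C1R and CST3 divided the group. In 31 of the 59 barcodes C1R exceeded CST3, in 25 CST3 exceeded C1R, and 3 were equal, a division made after the values were seen. All 31 of the first had TCF4, PLD4, IRF8, LAMP3, CD8B, CTSS, UNC93B1 and LOC101113211. They also had JCHAIN and CD79A, the rule genes through which most of the group entered. Their levels were 2912 for IRF8, 719 for PLD4, 1428 for IRF7, 548 for CD8B and 1651 for LOC101113211. The 25 barcodes of the second had 878, 266, 286, 101 and 300 for these genes, with 11631 for CST3. JCHAIN had 855 in the first and 390 in the second, and CD79A 258 and 222. Other genes were higher in the second, such as CD74, at 8293 against 6434, and IRF4, at 135 against 83.8.

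At 3 months the 7 segment-poor members were too few and too mixed to describe as a kind. Only 1 had C1R above CST3, and that barcode had 3137 for IRF8, 882 for PLD4, 588 for IRF7, 588 for CD8B and 686 for LOC101113211. IRF7 and LOC101113211 were thus under the levels of the 31 at 6 months, by over 2-fold, and the other 3 were not. Another had 34325 UMIs, among them 11323 CGA, 704 LHB and 187 FSHB, and a further barcode of 18364 UMIs had 1332 POMC, all hormone transcripts of other pituitary cells. CD79B was in 3 of the 7 and PAX5 in 2.

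By the given division at 6 months, the 109 members with more JCHAIN and the 12 with more MS4A1 were compared per 1000000 of all UMIs. Of 5867 genes 325 were higher in the former, 5.54%, and 1959 lower, 33.4%, with a median log2 ratio of -0.68. Without segments and hormones 920 of 5848 were higher and 646 lower, with a median of 0.11. The share of the 2-fold genes that were higher thus moved from 14.2% to 58.7% with the scale. Of 17 plasma cell identity genes 8 were higher and 1 lower (10 and 0 without segments), and of 34 secretory genes 19 and 0 (31 and 0). Of 20 B cell identity genes 1 was higher and 12 lower (2 and 10), and of 17 receptor signalling genes 0 and 15 (1 and 6).

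The leading genes of that comparison mixed both kinds of JCHAIN-high member. MZB1 (at least 4.64), JCHAIN (4.80), FKBP11 (4.29) and SDF2L1 were higher in segment-rich than in segment-poor barcodes. CST3 (4.50), CTSS (3.81), CEBPD (at least 3.54) and C1R (at least 3.38) were among those high in segment-poor barcodes. GNLY, HSPA6, HSPB1 and FOS completed the 12. With at least 3 rule genes required, CTSS turned to -1.15. Without members that had a CD3 gene, GNLY was at 0.73, under 2-fold. Lower were MS4A1 (-7.86), ARHGAP25 (-5.19), HVCN1 (-4.86), a proton channel of B cells, TSPO (-3.97), SWAP70 (-3.95), CTSH (-3.53), GPRC5C, MYO1E and BHLHE41.

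The members were also set beside the T gate of the same library. Of 10375 genes 358 were higher in the members, 3.45%, and 3394 lower, 32.7%, with a median of -0.71 per 1000000 of all UMIs. Without segments and hormones these were 992 and 1148 of 10355, with a median of 0.02, and the share of the 2-fold genes that were higher moved from 9.54% to 46.4%. Of 24 B cell identity genes 14 were higher and 6 lower, and of 19 plasma cell identity genes 10 and 1. MZB1 had a log2 ratio of 10.80, JCHAIN 10.69, DERL3 7.66, VPREB3 7.42, EAF2 6.42, C1R 6.28, TXNDC5 6.04 and SPIB 5.76. CD79B was higher by at least 5.89, TNFRSF17 by at least 4.64 and MS4A1 by at least 4.61. Of these JCHAIN, CD79B and MS4A1 chose the members. PENK (7.10) rested on 84 UMIs of 1 barcode. All 15 T genes were lower (14 without segments), as were 8 of 8 NK genes, and the leading lower genes included CCL1 (-11.11), XCL1 (-7.41), CD3E (-6.23) and CCL5 (-5.95). CD3E, CD3D and CD3G among the T genes defined the gate and limited the members.

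Detection depended on depth. At 6 months CD79A was found in 96% of members, 14.5% of T gate and 0.844% of macrophage gate barcodes. Thinned to 1000 UMIs each, segments included, these were 29%, 5.19% and 0.153%. JCHAIN fell from 91.1% to 56.5% in members and was at 2.07% in the macrophage gate and 0.148% in the T gate. MZB1 went from 57.3% to 38.7%, with 68.6% of segment-rich and 1.69% of segment-poor members. CD74 went from 92.7% to 61.3% and XBP1 from 82.3% to 24.2%. Median depth was 26421, 4548.5 and 9145 UMIs in the 3 groups of members, 2979 in the T gate and 4632.5 in the macrophage gate.

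Between the ages all members were first set side by side per 1000000 of all UMIs. Of 6478 genes 778 were higher at 6 months, 12%, and 1037 lower, 16%, with a median log2 ratio of -0.22. Without segments and hormones 870 were higher and 821 lower, and the share of the 2-fold genes that were higher moved from 42.9% to 51.4%. The lineage lists had medians near 0 or slightly above. Of 18 plasma cell identity genes 3 were higher and 2 lower, with a median of -0.07. Of 34 secretory genes 2 were higher and 1 lower, at -0.04. Of 21 B cell identity genes 6 were higher and 3 lower, at 0.27. Without segments and hormones these were 4 and 0 (0.05), 3 and 0 (0.08) and 6 and 2 (0.39), so the plasma cell and secretory medians changed sign around 0. The rule genes CD79B, MS4A1 and PAX5 were lower at 6 months, PAX5 by a log2 ratio of -5.07 from 19 UMIs at 3 months and 5 at 6 months. MS4A1-positive members made up 29.4% of the members at 3 months and 11.3% at 6 months, so the groups were mixed in unlike proportions. The part of this mix in the lower values was not tested, and values within the groups follow below.

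The leading genes lower at 6 months were hormone and endocrine genes: FSHB (-10.71), POMC (-9.82), CGA (-8.11), LHB (-7.32), SCG2 (-4.15) and CHGB (-3.48), with TGFBR3L, PEG10, S100A4, IGFBP2 and MBNL3. Most of these hormone UMIs came from the 2 segment-poor barcodes at 3 months named above, 1 with POMC and 1 with CGA, LHB and FSHB. Without the POMC barcode 858 genes were higher and 769 lower, without the CGA barcode 708 and 977, and without both 837 and 688. Without both, CGA was at -4.39, LHB at -3.20 and SCG2 at -2.82, while CHGB (-0.87) and IGFBP2 (-0.58) were under 2-fold. POMC, FSHB, PEG10 and MBNL3 then had too few UMIs to be compared. Of the 3-month barcodes left, a segment-rich barcode of 25735 UMIs had the most of these hormone UMIs, with 648 CGA, 72 SCG2 and 17 LHB. The CGA and SCG2 values thus again rested mainly on 1 barcode. Of the higher genes IRF1, a factor of the interferon response, had 238 at 6 months against 17.3 at 3 months per 1000000 of all UMIs (log2 3.78, 2.41 to 5.66). It was in 2 of 17 and 94 of 124 members. The others were GNLY, TAMALIN, CXCL10, RRAD, S100A2, NCF1, SQSTM1, HSPA1A, IL1RN, CEBPD and PLAC8. CEBPD and PLAC8 turned direction with at least 3 rule genes required, at -2.05 and -2.61, and PLAC8 also where the members with more MS4A1 were taken alone, at -0.53.

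Within segment-rich members the plasma cell programme was close between the ages. The MZB1 levels given above differed by a log2 ratio of -0.14 (-0.31 to 0.05). JCHAIN had 15542 and 15207, at -0.03 (-0.13 to 0.07), and HSP90B1 6816 and 7467, at 0.13 (-0.01 to 0.28). Of 17 plasma cell identity genes 1 was higher (SLC3A2) and 1 lower (IRF4), with a median of 0.02. Of 33 secretory genes 2 were higher, HSPA5 and HERPUD1, and 0 lower, with a median of 0.18. On all UMIs these lists had 0 and 2, at -0.30, and 0 and 0, at -0.15, so the sign of both medians turned with the scale. HERPUD1 was at 1.28, and at 0.95 on all UMIs. Over all genes 484 of 3483 were higher, 13.9%, and 247 lower, 7.09%, with a median of 0.07. On all UMIs 319 of 3502 were higher and 514 lower, and the share of the 2-fold genes that were higher moved from 66.2% to 38.3%.

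Some genes of this group did differ 2-fold. CD79A had 557 at 6 months (47 of 51 barcodes) against 159 at 3 months (3 of 5), a log2 ratio of 1.81 (0.91 to 2.88). ISG15, an interferon-induced ubiquitin-like protein, had 924 and 80.6, at -3.52 (-4.13 to -2.92), and was in 5 of 5 and 13 of 51 barcodes. IFI6, another interferon-induced gene, had 430 and 132, at -1.71. IRF1 went the other way, at 63.7 and 285, or 2.16 (0.78 to 4.06). The interferon list thus had 1 higher and 2 lower of 8 measured genes. Others higher at 6 months were GNLY (at least 4.61), VPREB3 (3.57), RGS1 (3.22) and HSPA1A (1.86). Others lower were TNF (-3.13), SCG2 (-2.87), ATF3 (-1.71) and PTGES3 (-1.22). At 3 months 1 barcode held all 13 TNF UMIs, and 1 barcode held 72 of 75 SCG2 UMIs. With 5 barcodes at 3 months a single barcode can set such a value.

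MS4A1-positive members had 5 barcodes at 3 months and 14 at 6 months, and 612 genes with enough UMIs. Of these 93 were higher at 6 months, 15.2%, and 53 lower, 8.66%, with a median of 0.09 (97 and 56 on all UMIs). Levels of the main B cell genes lay near each other, with wide intervals: MS4A1 had 542 and 577, at 0.09 (-0.83 to 1.11), CCR7 1627 and 1363, at -0.26 (-0.80 to 0.31), and CD74 3797 and 3683, at -0.04 (-0.39 to 0.31). CD79B was lower at 6 months, at 709 and 315, or -1.17 (-2.13 to -0.19). Of 8 B cell identity genes 2 were higher (LTB, SWAP70) and 2 lower (CD40, TNFRSF13C). The interferon genes again went both ways, with IRF1 at 0 and 603 (at least 2.27), PSMB9 and TAP1 higher, and ISG15 (835 and 380), IFI6 (-3.77) and MX1 lower. FOS was lower, at -3.86 with 41 UMIs at 3 months and 9 at 6 months, and BCL2A1 was at -1.51 with 39 of 43 UMIs at 3 months in 1 barcode.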

How the data were processed

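Single-cell transcripts were measured in 1 library each of the 3-month and 6-month anterior pituitary. The deposited values are raw UMI counts for every gene in every barcode, not normalized by the authors. Per the submitters' processing notes Cell Ranger 5.0.0 was used, while the matrix header names 5.0.1. The genome build behind the counts is not given in the sources used here. Gene names and barcodes come from other, non-numeric lists deposited with them. Of 23141 gene identifiers 22726 (98.2%) matched a reference gene table of ARS-UI_Ramb_v3.0, used for names and neighbouring genes only.

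Members were found by the stated rule, without removing doublets. Scanpy 1.11.5 (Scrublet, seed 0) marked them per library, and leaving them out was an alternative. Members, lists and groups were chosen with earlier results of these data known, and the segment groups, their comparisons and the C1R and CST3 division after the values were seen. UMIs were summed per group in Python 3.11.15 with numpy 2.4.6, scipy 1.17.1 and pandas 2.3.3, and plotted with matplotlib 3.10.9. Levels are per 1000000 UMIs, with all UMIs or without 29 antibody segments and 7 hormone genes in the total. Genes with at least 20 summed UMIs were counted as different at 2-fold, and a group at 0 was set to a floor of 3 UMIs. The summing and counting were tested on simulated data. Thinning to 1000 UMIs used seed 11.

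Named genes were the rule genes, members of 25 fixed lists with at least 20 UMIs over the members or defining markers at 0, antibody segments with at least 1% of member UMIs, and up to 12 genes per direction ranked by whichever interval bound lies closer to 0. Alternatives were other limits on size, rule genes, PRL, CD3 and summed UMIs, doublets left out, edgeR 4.0.16 TMM sizes (R 4.3.3), other denominators and means per barcode. Promoter motifs were not analysed here, and genome sequence was not used here. Some results on single genes are withheld and not reported here.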

Additional observations from a re-analysis of the deposited data

How the results depend on the processing

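No paired analysis was possible because each age had 1 library and no result comes from a test. Of 1013 values of leading genes under the alternatives 1001 kept their direction and stayed beyond 2-fold, 8 fell under 2-fold, and 4 turned: CTSS in the JCHAIN-over-MS4A1 comparison to -1.15, CEBPD to -2.05 and PLAC8 to -2.61 between the ages with at least 3 rule genes, and PLAC8 to -0.53 in members with more MS4A1 alone. Of the other values 83 stayed within their limits and 42 moved, and the cause was not tested. The 1013 leave out leading genes that an alternative left with too few UMIs to compare. Without the 2 hormone-laden 3-month barcodes these were POMC, FSHB, PEG10 and MBNL3, so genes that rested on 1 barcode are not among those that fell or turned.

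The share of members moved to 0.0367% at 3 months and 0.347% at 6 months with at least 3 rule genes, to 0.777% at 6 months with no CD3 gene allowed, and to 0.49% without segment-poor members, a restriction chosen after seeing the data. The plasma part moved to 29.4% at 3 months and 41.1% at 6 months by segment share, and to 45.2% at 6 months with 10 JCHAIN UMIs per 10000.

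For members with more JCHAIN over more MS4A1, higher genes numbered 174 with at least 3 rule genes, 971 with TMM, 920 without segments and hormones and 704 by means per barcode. Lower genes numbered 629 with TMM, 646 without segments and hormones, 906 at 50 UMIs and 3607 at 3 UMIs. For 6 over 3 months, higher genes numbered 139 with at least 3 rule genes, 403 at 50 UMIs and 73 in members with more MS4A1 alone. Lower genes numbered 662 with JCHAIN at 2 or more UMIs, 639 with TMM, 337 at 50 UMIs, 2917 at 3 UMIs, 43 in that part alone and 688 without the 2 hormone-laden 3-month barcodes. For members over the T gate, higher genes numbered 208 with at least 3 rule genes, 953 with TMM, 992 without segments and hormones, 718 at 3 UMIs and 1120 by means per barcode. Lower genes numbered 5909, 1192 and 1148 under the first 3 of these settings and 1896 by means per barcode.

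On all UMIs, segment-rich over MS4A1-positive members gave 199 and 1854, and segment-rich members between the ages 319 and 514. Unthinned detection was 96% for CD79A, 91.1% for JCHAIN, 57.3% for MZB1, 92.7% for CD74 and 82.3% for XBP1. At 3 months 17 members in groups of 5 to 7 barcodes carry every value, so 1 barcode can set one.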
